A study of Mus musculus with 52 samples.

Results

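The homeostatic microglia markers described here are 10 genes that resting microglia of the mouse express at high levels: P2ry12, P2ry13, Tmem119, Cx3cr1, Csf1r, Aif1, Olfml3, Siglech, Gpr34 and Fcgr3. They were chosen by symbol, and each matched 1 row of the 23697 genes in all 6 deposited tables. Microglia are the resident macrophages of the central nervous system. They arise in the yolk sac, depend on signalling through the receptor encoded by Csf1r, and keep a surveying state that transforming growth factor beta and the transcription factor PU.1 help to maintain. In injury and neurodegeneration they can lose part of the surveying signature and gain phagocytic and lysosomal genes, a state often called disease-associated. Most of the 10 genes are highly selective for microglia within nervous tissue, while some, among them Fcgr3, Aif1 and Csf1r, are also expressed by other macrophages and by monocytes.

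The study profiled spinal cord RNA of mice carrying mutant SOD1, a model of amyotrophic lateral sclerosis, and of non-transgenic (Non-Tg) controls, in 52 libraries. Ribosome-bound mRNA was purified by GFP immunoprecipitation from bacTRAP reporter mice, in which a ribosomal protein of the chosen cell type carries a GFP tag, controls included. Motor neurons (4 SOD1 G37R and 4 control libraries), astrocytes (4 and 6) and 8-month oligodendrocytes (4 and 5) were labelled as disease onset, and 11-month oligodendrocytes (3 SOD1 G85R, 3 SOD1 G37R and 5 control libraries) as an early symptomatic stage. Whole spinal cord was profiled at 8 months (4 G37R and 4 control libraries) and at 11 months (3 and 3), at the same stages. No age is given for motor neurons and astrocytes, and the promoters that drive the reporters and the mutant transgenes are not given in the sources used here. All libraries labelled as onset are labelled male, and each 11-month group holds both sexes. No microglia were purified, so the 10 genes serve as a gauge of microglial RNA carried into the purified samples and of change in whole cord.

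Levels are given in FPKM-equivalents, fragments scaled to transcript length and library size, a scale that allows genes to be compared. Changes are differences of log2(value + 1) between group means with their SE, from limma, and a gene was tested where it averaged at least 1 over the libraries of its table. An adjusted p under 0.05 is called a change. The deepest library of a table held 1.21 to 1.65 times the reads of the shallowest, judged from low values, and absolute depth is unknown. In bulk samples fewer cells of a type and less RNA per cell cannot be told apart.

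The sex labels of 2 of the 52 libraries went against the data, and both belong to the 11-month whole cord controls. The library labelled control 1, given as male, had 45.3 FPKM of Xist, the transcript of the inactive X chromosome, and 0.0136 of the Y-linked gene Ddx3y. The library labelled control 3, given as female, had 0.121 of Xist and 19.2 of Ddx3y. The library labelled control 1 also carried the highest summed level of the 10 genes in that table, 275.1, against 149.8 and 130.9 in the other controls. It was likewise the highest in disease-associated genes (9079, against 3036 and 2889), C1q genes (988.4, against 279.8 and 240.0) and astrocyte markers (4595, against 2710 and 2573), so the 11-month cord values are given library by library. In 11-month oligodendrocytes the library labelled G85R 1 stood apart, with a summed level of 88.0 against 14.9 and 18.3 in the other G85R libraries.

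Promoters of 4 genes with unlike values in G37R cord are shown here because PU.1, a factor that many microglial genes depend on, binds sequences that hold the string GAGGAA. RefSeq promoter windows (GRCm38.p6, 300 bases that include the start) were matched for 7 of the 10 genes. GAGGAA or its reverse complement was found in 4 of these 7 windows (Fcgr3, Aif1, Siglech and P2ry13), against 28.3% of all 27025 promoter windows of the table. The string was picked after its counts had been seen, and related strings were found in 2 (GGAAGT), 1 (AGGAAGT) and 0 (GAGGAAGT) of the 7 windows, against 24.1%, 9.57% and 3.28% of all windows. The windows of Fcgr3 (chr1:171059354-171059653) and Aif1 (chr17:35176003-35176302) hold GAGGAA on the reverse strand, in capitals. Those of P2ry12 (chr3:59262936-59263235) and Olfml3 (chr3:103737952-103738251) do not hold GAGGAA. The P2ry12 window is the 1 that holds the related string AGGAAGT, which is not marked below. All 4 are read 5′ to 3′ on the minus strand of GRCm38.p6:
Fcgr3: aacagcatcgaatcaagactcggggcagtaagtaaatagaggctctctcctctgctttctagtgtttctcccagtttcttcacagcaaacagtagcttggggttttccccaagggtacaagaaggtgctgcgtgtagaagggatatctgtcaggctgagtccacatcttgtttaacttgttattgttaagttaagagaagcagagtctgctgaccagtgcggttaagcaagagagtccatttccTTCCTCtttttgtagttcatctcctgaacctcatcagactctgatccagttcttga
Aif1: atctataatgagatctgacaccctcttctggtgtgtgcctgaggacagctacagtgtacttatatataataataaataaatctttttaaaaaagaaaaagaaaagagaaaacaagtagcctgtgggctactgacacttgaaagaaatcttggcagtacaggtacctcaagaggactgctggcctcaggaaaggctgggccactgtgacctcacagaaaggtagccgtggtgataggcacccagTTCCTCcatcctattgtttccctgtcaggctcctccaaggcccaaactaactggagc
P2ry12: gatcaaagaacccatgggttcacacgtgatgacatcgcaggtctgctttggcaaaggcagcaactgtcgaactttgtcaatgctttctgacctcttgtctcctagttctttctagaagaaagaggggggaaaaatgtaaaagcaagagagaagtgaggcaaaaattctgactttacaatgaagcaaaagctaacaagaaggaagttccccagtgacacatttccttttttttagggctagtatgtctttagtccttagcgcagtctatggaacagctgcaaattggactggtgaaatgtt
Olfml3: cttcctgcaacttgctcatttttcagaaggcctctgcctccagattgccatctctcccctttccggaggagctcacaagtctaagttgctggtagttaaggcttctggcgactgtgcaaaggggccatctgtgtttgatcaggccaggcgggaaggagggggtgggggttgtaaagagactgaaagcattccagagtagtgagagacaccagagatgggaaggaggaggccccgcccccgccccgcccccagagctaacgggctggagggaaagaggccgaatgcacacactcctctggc
A match is a string in a window and not a bound site. Fcgr3 and Olfml3, with and without the string, both differed between G37R and control cord at 8 months.

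In the deposited coordinates (mm9), P2ry12 lies at chr3:59020192-59066753 and P2ry13 at chr3:59011813-59014804, side by side within the span of Med12l. Gpr34 (chrX:13209894-13217984) lies within the span of Cask. The others are Olfml3 (chr3:103539316-103541924), Tmem119 (chr5:114243737-114250361), Cx3cr1 (chr9:119957810-119977400), Csf1r (chr18:61265225-61290793), Aif1 (chr17:35307936-35312946), Siglech (chr7:63023547-63034203) and Fcgr3 (chr1:172981299-172989534). Of the 50-base stretches of their coding transcripts in GENCODE M21, 16.4% of those of Csf1r are also in Hmgxb3 and 10.2% of those of Fcgr3 are also in its paralog Fcgr2b. The other 8 genes share 1.06% or less with any other gene, and 5 of them share none. How the authors assigned shared reads is not given in the sources used here, so the levels of Csf1r and Fcgr3 carry that uncertainty. Whether strand was used is not given either. The levels of P2ry12, P2ry13 and Gpr34 thus carry the uncertainty of reads from Med12l or Cask, which the shared transcript stretches do not measure.

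The 10 genes were far lower in every purified control group than in control spinal cord, as levels set across tables that were normalized separately. Their summed control level was 4.48 in motor neurons, 17.9 in astrocytes and 14.9 in 8-month oligodendrocytes, against 121.3 in 8-month cord. That is 3.69%, 14.7% and 12.3% of the cord level. The 10 genes did not keep one proportion within a cell type. In motor neurons the share ran from 1.67% for Csf1r, the receptor for CSF1 and interleukin 34, to 10.2% for Olfml3, a secreted olfactomedin-like protein. In astrocytes it ran from 4.83% for Csf1r to 45.8% for Aif1, which encodes the actin-binding protein IBA1. In 8-month oligodendrocytes it ran from 6.94% for Tmem119, a microglial membrane protein, to 23.7% for P2ry12, the ADP receptor that directs process movement towards injury.

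In 11-month oligodendrocyte controls the summed level was 15.5, against 185.3 in 11-month control cord, or 8.35%. Without the library labelled control 1 the cord level was 140.4 and the share 11.02%. P2ry12 again had the highest share, at 17.9% without that library, and Gpr34, a lysophosphatidylserine receptor, the lowest at 6.99%. P2ry12 thus stood at 3.35 to 3.68 FPKM-equivalents in the control groups of both oligodendrocyte ages and at 3.40 in astrocytes.

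**Figure D1:**
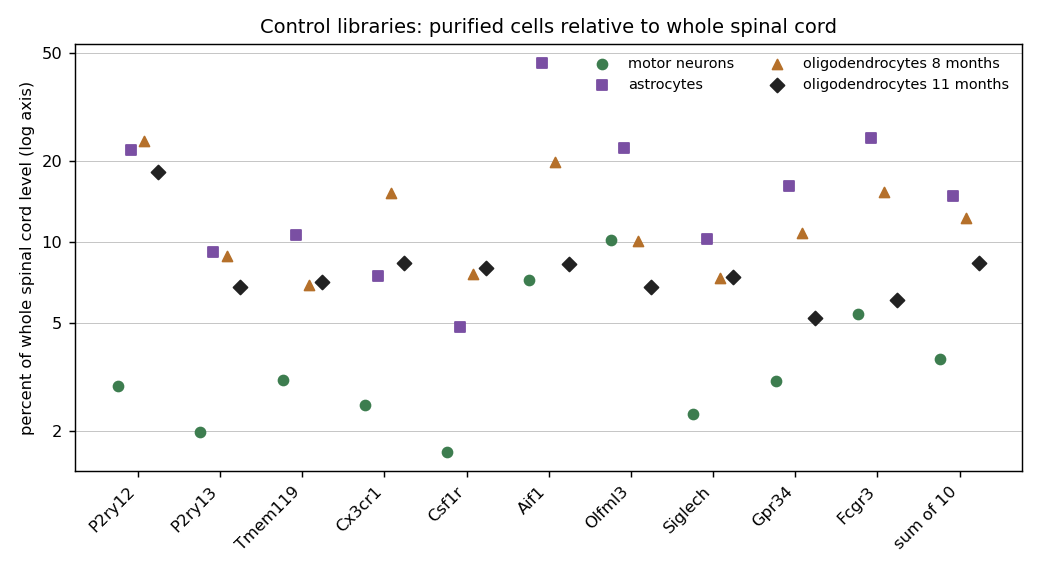
Control level of each of the 10 genes in purified cells as a percentage of the control level in whole spinal cord of the matching stage (log axis), 1 point per gene and cell type. Csf1r in motor neurons is the lowest at 1.67% and Aif1 in astrocytes the highest at 45.8%.

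In whole spinal cord at 8 months the 10 genes split. Fcgr3, Olfml3 and Csf1r rose in G37R mice, with log2 changes of 0.56 to 1.01, whereas P2ry12 had a lower mean and did not pass the threshold. Of the 10 tested, 3 were called higher and 0 lower, where 1.87% of all 13828 genes tested were called higher. The median change of the 10 was 0.23, against -0.01 over all genes tested. In 5 of them (Fcgr3, Olfml3, Csf1r, Aif1 and Tmem119) every G37R library lay above every control, as for 4.92% of all genes tested. The summed level of 10 astrocyte markers was 3395 to 4018 in G37R, against 2762 to 3339 in control libraries, and that of 8 cell division genes 5.08 to 6.399 in G37R, against 4.51 to 4.63 in control libraries. Neither sum overlapped, 0 of the tested genes of either list were called by limma (4 and 1 at an unadjusted p under 0.05), and their part in the values of the 10 genes was not tested.

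Fcgr3 encodes a low-affinity activating receptor for IgG. It had 19.0, 24.7, 25.3 and 21.2 FPKM-equivalents in the 4 G37R libraries, against 10.6, 10.7, 11.2 and 9.98 in the 4 control libraries. The lowest G37R library was well above the highest control, and the log2 change was 1.01 (SE 0.0835, adjusted p = 0.00182). It stayed called under all 18 alternatives, with an adjusted p of at most 0.0116.

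Olfml3 had 16.8, 19.8, 25.1 and 19.6 in the G37R libraries, against 12.1, 13.9, 11.5 and 11.6 in the controls. The groups did not overlap, and the log2 change was 0.67 (SE 0.113, adjusted p = 0.0274). The Olfml3 call was lost when any 1 of G37R 2, G37R 4, control 1, control 3 or control 4 was left out, at adjusted p-values of 0.0899, 0.0769, 0.0911, 0.0703 and 0.095, while its change kept to 0.65 to 0.69 in these fits.

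Csf1r had 38.9, 46.1, 51.6 and 44.8 in the G37R libraries, against 30.7, 35.3, 29.3 and 26.8 in the controls. Its log2 change was 0.56 (SE 0.1, adjusted p = 0.0337), again with no overlap. The Csf1r call was lost without G37R 2, 3 or 4 (adjusted p = 0.112, 0.0684 and 0.0926) and without control 1, 3 or 4 (0.0983, 0.0808 and 0.0873).

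Aif1 had 8.63, 9.51, 14.5 and 10.4 in the G37R libraries, against 6.59, 6.82, 6.68 and 6.13 in the controls. Every G37R library was higher, but the log2 change of 0.62 did not pass the threshold (adjusted p = 0.0653). Without G37R 1 it was 0.70 (adjusted p = 0.0252), and without G37R 3, the library with the highest value, it was 0.48 (adjusted p = 0.0142).

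P2ry12 had 15.1, 12.1, 12.9 and 13.02 in the G37R libraries, against 15.6, 17.4, 14.1 and 15.1 in the controls. The G37R 1 library lay among the controls and the other 3 lay below all of them. The log2 change was -0.21 (SE 0.0745), which did not pass the threshold (adjusted p = 0.206). P2ry13, a related ADP receptor, differed less, at 5.44 ± 0.849 in G37R and 4.90 ± 0.624 in control cord (SD, n = 4 each).

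The remaining receptors had overlapping groups. Cx3cr1, the receptor for the neuronal chemokine fractalkine, was at 17.9 ± 3.16 in G37R and 14.3 ± 1.44 in control cord. Gpr34 was at 8.20 ± 1.60 in G37R and 7.10 ± 0.901 in control cord. Siglech, a sialic acid binding lectin, was at 7.17 ± 0.478 in G37R and 6.62 ± 0.573 in control cord (SD, n = 4 each). None of these 3 passed the threshold.

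Tmem119 did not overlap between the groups, yet differed little. It had 14.8, 13.7, 14.02 and 15.8 in the G37R libraries, against 12.5, 13.6, 12.7 and 12.9 in the controls. The lowest G37R library and the highest control were almost level, and the log2 change of 0.16 did not pass (adjusted p = 0.137).

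**Figure D2:**
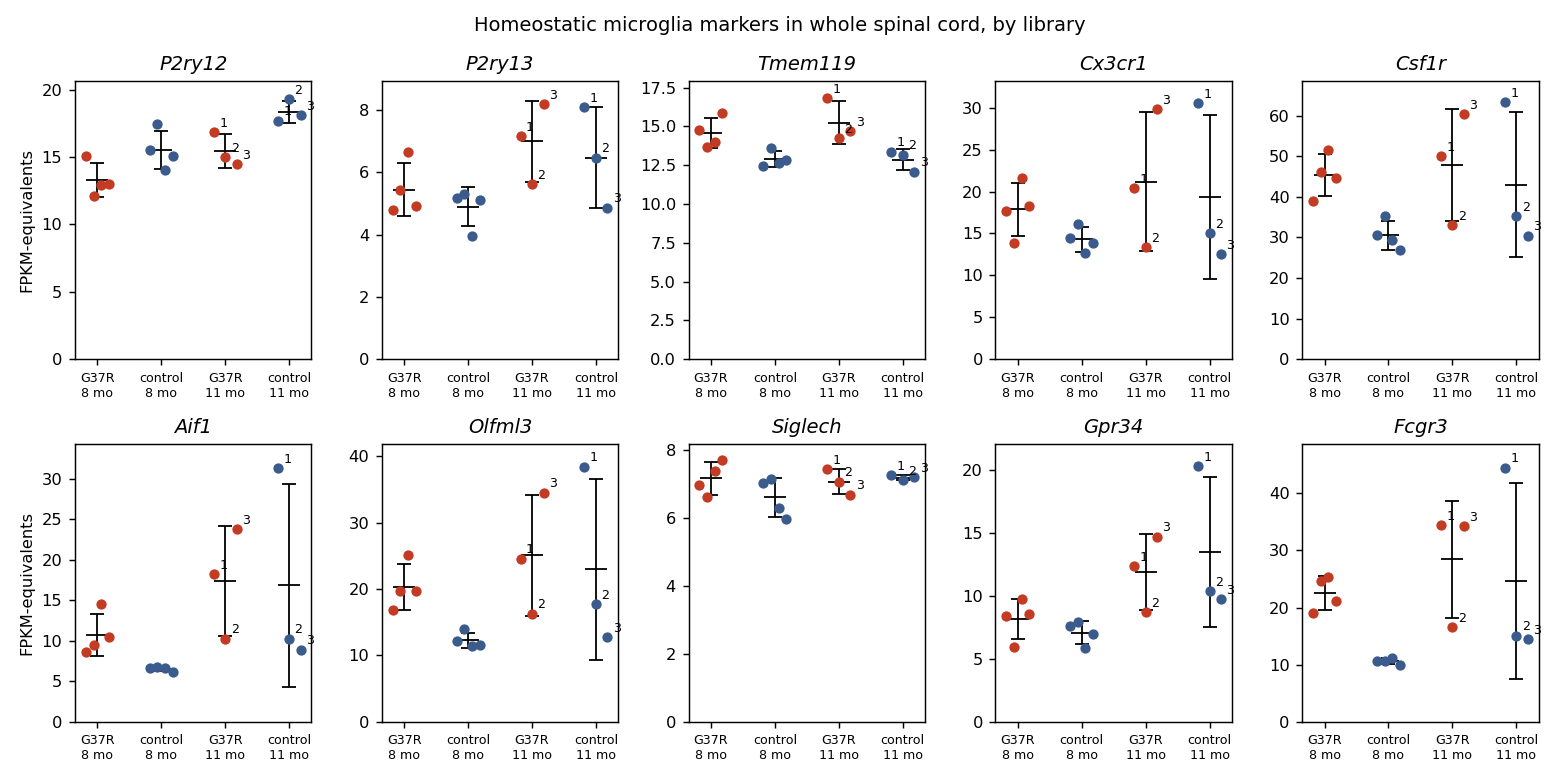
Level of each of the 10 genes in every whole spinal cord library at 8 months and at 11 months, G37R left of control, in FPKM-equivalents, with bars at group means and 11-month points labelled by replicate number. At 8 months all 4 G37R libraries of Fcgr3 lie between 19.0 and 25.3 and all 4 controls between 9.98 and 11.2.

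At 11 months 0 of the 10 genes were called in whole cord by limma, and 2 had an unadjusted p under 0.05. Only 0.0217% of all 13839 genes tested were called in that comparison. Fcgr3 had 34.5, 16.6 and 34.3 FPKM in the G37R libraries, against 44.5 in the library labelled control 1 and 15.1 and 14.4 in the other controls. The library labelled control 1 was above every G37R library, and the library labelled G37R 2 was close to the other controls. The log2 change of Fcgr3 was 0.32 (adjusted p = 0.969).

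The same libraries stood out in 6 more of the genes. Aif1 had 18.3, 10.3 and 23.8 in the G37R libraries, against 31.4, 10.3 and 8.91 in the controls. Olfml3 had 24.5, 16.2 and 34.5 in the G37R libraries, against 38.4, 17.7 and 12.7 in the controls. In both genes the library labelled control 1 was the highest of all 6. Csf1r had 50.0, 33.1 and 60.4 in the G37R libraries, against 63.4, 35.3 and 30.4 in the controls. Cx3cr1 and Gpr34 were also highest in the library labelled control 1, at 30.6 and 20.3. P2ry13, at 8.10 in that library, was topped by G37R 3 at 8.20. Without the libraries labelled control 1 and control 3, an alternative chosen after seeing the data, 22 genes were called and 0 of the 10, and Fcgr3 had a log2 change of 0.80.

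P2ry12, Tmem119 and Siglech did not follow that order. P2ry12 had 16.9, 15 and 14.5 in the G37R libraries, against 17.7, 19.3 and 18.1 in the controls, so every G37R library was below every control, as for 7.73% of all genes tested. Its log2 change was -0.24 (adjusted p = 0.892). Tmem119 had 16.8, 14.2 and 14.7 in the G37R libraries, against 13.4, 13.2 and 12.1 in the controls, all G37R above all controls, as for 4.60% of all genes tested. Siglech held between 6.70 and 7.44 in all 6 libraries, a range of 1.11 times, while Aif1 spanned 3.52 times and Fcgr3 3.08 times.

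The level of Fcgr3 relative to P2ry12 within a library describes this split without a scale between libraries, for a pair of genes picked from the split. At 8 months the ratio was 1.26 to 2.05 in the G37R cords, against 0.612 to 0.797 in the controls. At 11 months it was 2.04, 1.11 and 2.36 in the G37R cords, against 2.51 in the library labelled control 1 and 0.781 and 0.798 in the other controls. In astrocytes it was 1.70 to 2.58 in the G37R and 0.711 to 0.846 in the control libraries, and in 8-month oligodendrocytes 0.385 to 0.522 in the G37R and 0.310 to 0.674 in the control libraries. In motor neurons, where P2ry12 was under 1, it was 3.04 to 3.34 in the G37R and 0.853 to 2.21 in the control libraries. G37R and control groups separated in 8-month cord, astrocytes, motor neurons and 11-month oligodendrocytes (values below), and overlapped in 8-month oligodendrocytes and 11-month cord. Since the pair was picked from these values and no share over other pairs is given, the separation is a description and no test.

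**Figure D3:**
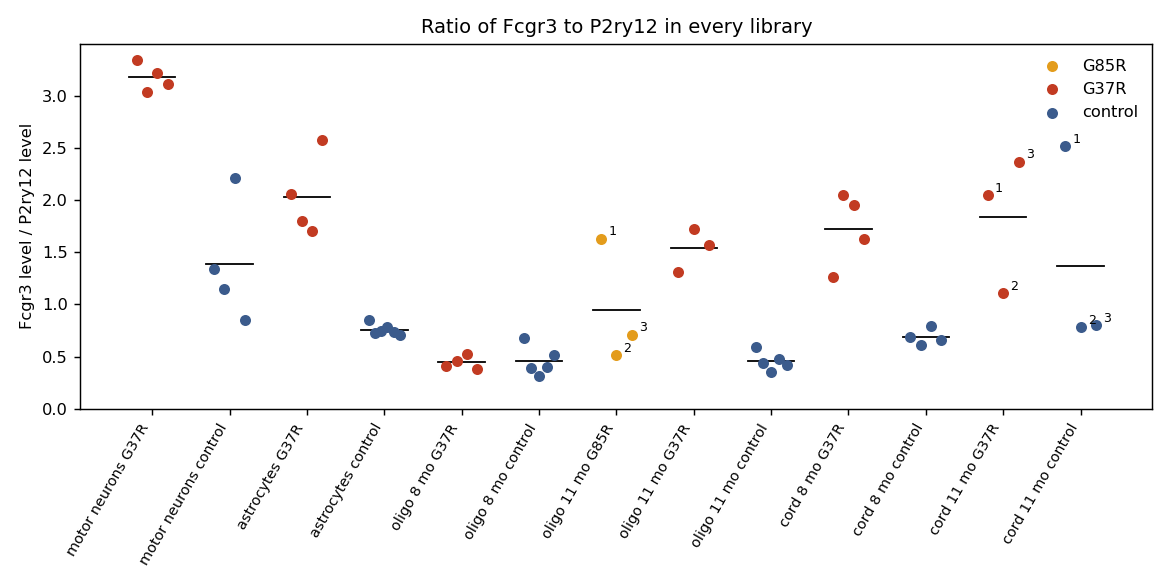
Level of Fcgr3 divided by the level of P2ry12 in each library, by table and genotype, mutant left of control, with 1 point per library. In 8-month spinal cord the G37R libraries lie at 1.26 to 2.05 and the controls at 0.612 to 0.797, and the 11-month cord library labelled control 1 lies at 2.51.

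In purified astrocytes of G37R mice at onset Fcgr3, Olfml3 and Csf1r rose, as each did in 8-month cord, and Aif1 rose as well. Of the 8 genes tested, 4 were called higher (Fcgr3, Olfml3, Aif1 and Csf1r) and 0 lower, where 1.52% of all 12466 genes tested were called higher. Every G37R library lay above every control for these 4, as for 2.44% of all genes tested, and also for P2ry13. P2ry13 and Siglech averaged under 1 and were not tested.

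Fcgr3 had 6.07, 7.74, 6.80 and 6.73 in the G37R astrocyte libraries, against a range of 2.08 to 3.11 with a median of 2.59 in the 6 controls. Its log2 change was 1.14 (SE 0.105, adjusted p = 0.000273). Olfml3 had 5.84, 6.50, 7.62 and 8.15 in the G37R libraries, against 2.30 to 3.33 with a median of 2.60 in the controls. Its log2 change was 1.10 (SE 0.107, adjusted p = 0.000347). For both genes the lowest G37R library was well above the highest control.

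Aif1 had 5.39, 5.11, 5.90 and 6.80 in the G37R libraries, against 2.09 to 4.16 with a median of 2.89 in the controls (log2 change 0.78, SE 0.134, adjusted p = 0.0123). Csf1r had 2.34, 3.72, 2.85 and 3.55 in the G37R libraries, against 1.01 to 1.90 with a median of 1.48 in the controls (log2 change 0.73, SE 0.123, adjusted p = 0.0104). All 4 calls held in each fit that left out 1 library.

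P2ry12 had 2.95, 4.30, 4.01 and 2.61 in the G37R libraries, against 2.92 to 4.05 with a median of 3.39 in the controls. The groups overlapped fully and the log2 change was 0.01 (adjusted p = 0.973). Tmem119 (log2 change 0.36, adjusted p = 0.296), Cx3cr1 (0.26, adjusted p = 0.375) and Gpr34 (0.14, adjusted p = 0.509) did not pass either.

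In motor neurons the 10 genes were low, and 3 of them averaged 1 or more (Aif1, Fcgr3 and Olfml3). Of these, 2 were called higher (Aif1 and Fcgr3) and 0 lower, where 6.49% of all 12303 genes tested were called higher. Aif1 and Fcgr3 passed the minimum level through the G37R group alone, so that they had to differ, and nothing is read from this count. Over all 10 genes, whether tested or not, the G37R mean was higher in 10 of 10. In 6 of them (P2ry13, Cx3cr1, Csf1r, Aif1, Gpr34 and Fcgr3) the groups did not overlap. Of the 3 tested, these were 2, where 11.4% of all genes tested had every G37R library above every control. For P2ry13, Cx3cr1, Csf1r and Gpr34, which averaged under 1, no share over genes as low is given.

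Fcgr3 had 1.81, 1.32, 2.19 and 2.40 in the G37R motor neuron libraries, against 0.621, 0.499, 0.627 and 0.544 in the controls. Its log2 change was 0.88. Aif1 had 1.28, 1.38, 2.59 and 2.50 in the G37R libraries, against 0.462, 0.214, 0.734 and 0.49 in the controls (log2 change 0.97). G37R 3 and G37R 4 were the higher pair in both genes.

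Csf1r had 1.06, 0.884, 1.85 and 1.94 in the G37R libraries, against 0.642, 0.557, 0.361 and 0.481 in the controls, and was not tested. Olfml3 had overlapping groups and a log2 change of 0.26 that did not pass. P2ry12, untested at 0.607 ± 0.149 in G37R and 0.456 ± 0.145 in control motor neurons (SD, n = 4 each), also overlapped. With no minimum level, so that all 10 genes were tested, 4 were called higher by limma, where 2.76% of all 19297 genes tested were: Fcgr3 (adjusted p = 0.0153), Aif1 (0.0266), Gpr34 (0.0355) and Csf1r (0.0398). Summed over the 10 genes, the level was 8.05, 7.48, 12 and 12.9 in the G37R libraries, against 3.95 to 5.01 in the controls.

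Transcripts of other glia moved with these values in motor neurons. The summed level of 10 astrocyte markers was 389.1 to 694.7 in the G37R libraries, against 267.8 to 323.4 in the controls, and that of 10 oligodendrocyte markers was 595 to 1034 in the G37R libraries, against 473.5 to 529.3 in the controls. All 10 of either list had a positive log2 change, with medians of 0.43 and 0.57, although 1 of each passed the threshold (Gfap and Cldn11). Without G37R 3 and G37R 4 and with no minimum level, an alternative added after seeing the data, Fcgr3 was called (log2 change 0.70, adjusted p = 0.0295) and Aif1 was not (0.67, adjusted p = 0.0881). The part of carried-over glial RNA in the motor neuron result was not tested.

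In 8-month oligodendrocytes 0 of the 6 genes tested were called by limma, and 1 had an unadjusted p under 0.05, where 0.109% of all 11935 genes tested were called. Fcgr3 had 1.32, 1.56, 1.79 and 1.11 in the G37R libraries, against 1.76, 1.48, 1.39, 1.27 and 2.20 in the controls, which overlap fully. Aif1 had 2.17, 2.42, 2.03 and 1.61 in the G37R libraries, against 1.31, 1.44, 1.31, 1.22 and 1.19 in the controls. Aif1 was the 1 gene of the 10 whose groups did not overlap, as for 3.55% of all genes tested, and its log2 change of 0.41 did not pass (adjusted p = 0.183).

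**Figure D4:**
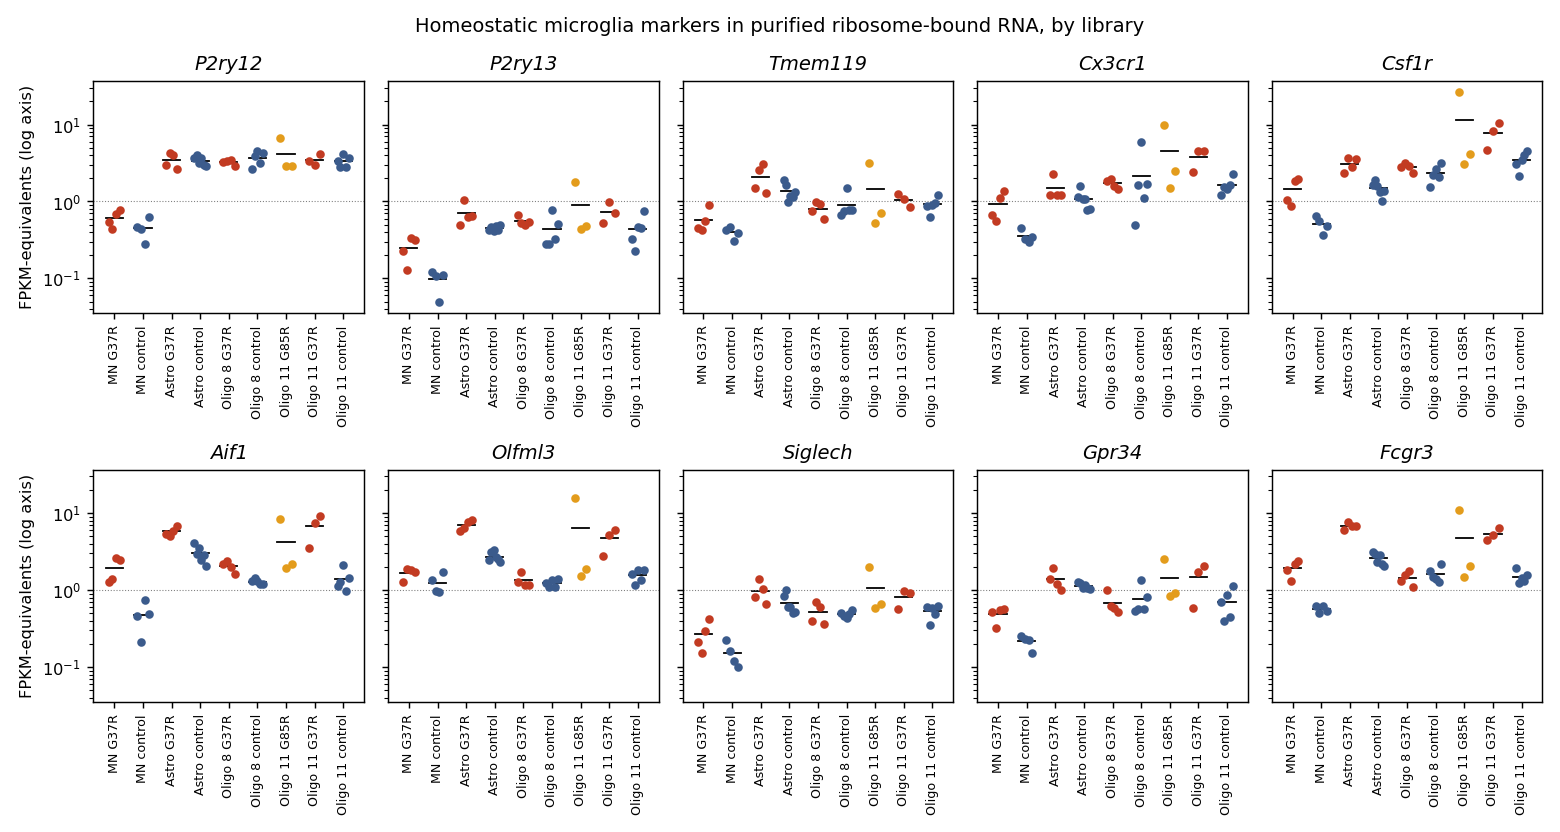
Level of each of the 10 genes in every library of purified motor neurons, astrocytes and oligodendrocytes at 8 and 11 months, mutant left of control, in FPKM-equivalents, with a dotted line at 1, the mean level required for a test. Fcgr3 in astrocytes lies at 6.07 to 7.74 in G37R and 2.08 to 3.11 in control libraries.

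At 11 months oligodendrocytes of both mutants were compared with the same 5 control libraries, so the mutant comparisons share their controls and are set side by side. Against control, 2 of the 8 genes tested were called higher in G37R (Aif1 and Fcgr3), where 26.1% of all 11733 genes tested were called higher and 49.0% in either direction, so this share is near the background. Against control, 0 of the 8 were called in G85R by limma and 1 had an unadjusted p under 0.05, where 0.00852% of all genes tested were called. In G37R the groups did not overlap for 5 genes (Cx3cr1, Csf1r, Aif1, Olfml3 and Fcgr3), as for 24.0% of all genes tested, and in G85R for 0, as for 12.2%.

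Aif1 had 8.46, 1.97 and 2.17 in the G85R libraries and 3.52, 7.54 and 9.33 in the G37R libraries, against 1.14, 1.29, 2.12, 0.975 and 1.45 in the controls. The log2 change was 0.92 in G85R and 1.64 in G37R (SE 0.381, adjusted p = 0.0075). Fcgr3 had 10.9, 1.49 and 2.06 in the G85R libraries and 4.42, 5.18 and 6.46 in the G37R libraries, against 1.96, 1.25, 1.43, 1.32 and 1.55 in the controls. Its log2 change was 0.85 in G85R and 1.34 in G37R (SE 0.41, adjusted p = 0.0225). All G37R libraries were above all controls, whereas in G85R the library labelled G85R 1 alone was far above them.

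The Fcgr3 call in G37R was lost without G37R 2 (adjusted p = 0.0676) and without G37R 3 (0.0861). Without G37R 1, Gpr34 was called as well (log2 change 0.78, adjusted p = 0.0234). Gpr34 averaged 0.703 in the controls and reached the minimum level through the mutant groups, so nothing is read from this call. The spread of the G85R group entered these tests, since all 3 groups were fitted together. An alternative added after seeing the data left out the library labelled G85R 1. Tmem119 and Gpr34 then averaged under 1 and were not tested. Of the genes of the set still tested, 5 were called higher in G37R, where 28.7% of all 11683 genes tested were. These were Fcgr3 (adjusted p = 0.000171), Aif1 (0.00066), Olfml3 (0.0011), Cx3cr1 (0.00386) and Csf1r (0.00691). P2ry12, the only other gene of the set tested, was not called (log2 change 0.05, adjusted p = 0.724).

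Olfml3 had 15.9, 1.53 and 1.88 in the G85R libraries and 2.82, 5.23 and 6.05 in the G37R libraries, against 1.64, 1.17, 1.83, 1.34 and 1.85 in the controls. Csf1r had 26.8, 3.06 and 4.08 in the G85R libraries and 4.65, 8.32 and 10.5 in the G37R libraries, against 3.05, 2.16, 3.44, 4.0 and 4.59 in the controls. P2ry12 had 6.68, 2.92 and 2.90 in the G85R libraries and 3.37, 3.00 and 4.12 in the G37R libraries, against 3.33, 2.83, 4.08, 2.77 and 3.72 in the controls. P2ry12 in G37R thus stayed within the range of the controls apart from G37R 3, just above it, with a log2 change of 0.05 (adjusted p = 0.848).

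Between the mutants at 11 months 0 of the 8 genes were called by limma, and 0 had an unadjusted p under 0.05, where 0.0426% of all genes tested were called. Without the library labelled G85R 1, Fcgr3 (log2 change -1.19, adjusted p = 0.0103) and Olfml3 (-1.03, adjusted p = 0.0453) were lower in G85R than in G37R. The share of all genes called in that fit is not given here. Fits that left out 1 library called 2 to 315 genes between the mutants. The ratio of Fcgr3 to P2ry12 was 1.63, 0.512 and 0.709 in the G85R libraries and 1.31 to 1.73 in the G37R libraries, against 0.350 to 0.587 in the controls.

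Other cell types also moved in 11-month G37R oligodendrocytes. Where 26.1% of all genes tested rose and 49.0% changed in either direction, 5 of 10 oligodendrocyte markers fell, 5 of 5 neuron markers rose and 4 of 4 motor neuron markers tested rose. Of 10 astrocyte markers Gfap (log2 change 1.91) and Aldh1l1 (1.22) rose and Glul (-0.35) fell. The oligodendrocyte markers summed to 22280 to 29980 in the G37R libraries, against 17360 to 39990 in the controls, the lowest in control 1, where Mbp is listed at 0, and the neuron markers to 3567 to 4393 in the G37R libraries, against 2046 to 2549 in the controls. Their part in the values of the 10 genes was not tested.

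**Figure D5:**
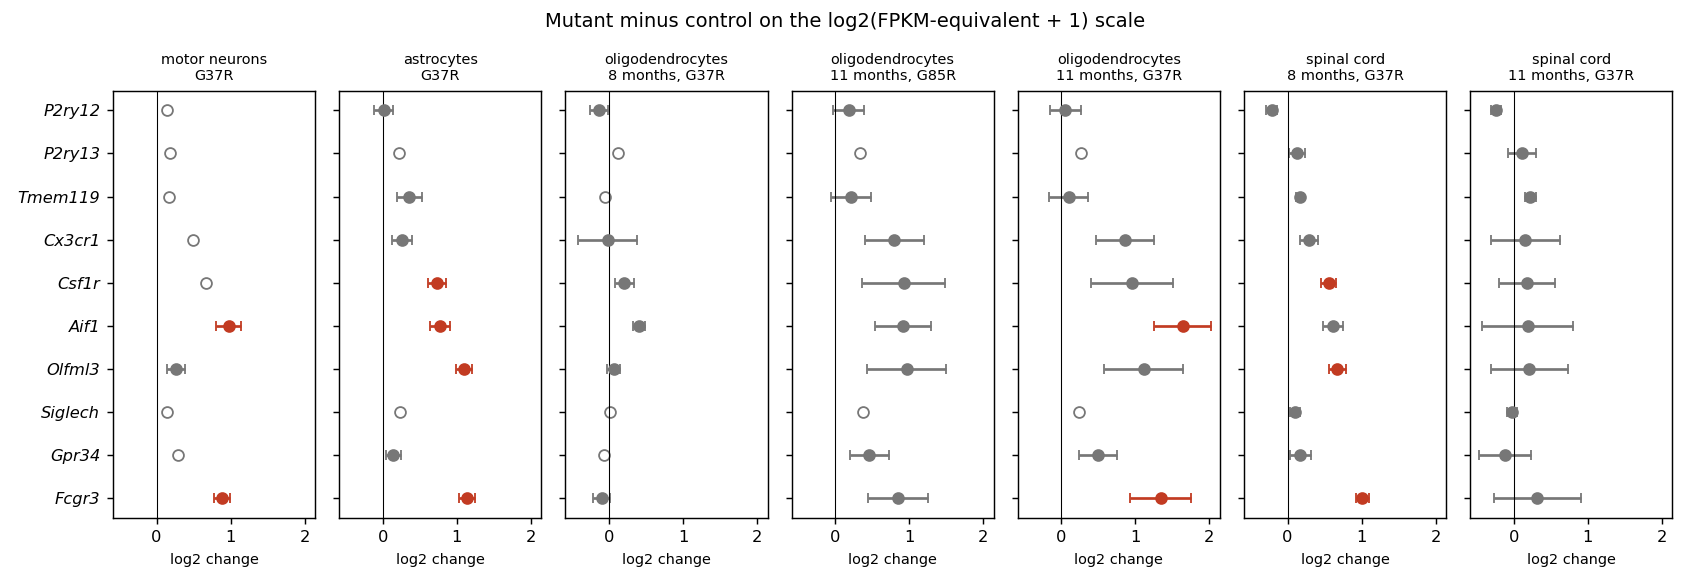
Difference of log2(value + 1) between mutant and control for each of the 10 genes in the 7 comparisons with control, with lines of 1 SE; red points were called at an adjusted p under 0.05 and open circles were not tested. The motor neuron points of Aif1 and Fcgr3 reached the minimum level through the G37R group alone. Fcgr3 is at 1.01 in 8-month cord, 1.14 in astrocytes and -0.10 in 8-month oligodendrocytes, and P2ry12 stays between -0.24 and 0.18.

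Tests of the difference between mutant effects set the purified cells beside whole cord. Fcgr3 rose in 8-month cord and not in 8-month oligodendrocytes, and its effect in oligodendrocytes minus that in cord was -1.11 (SE 0.151, adjusted p = 0.00671). It was the 1 of 6 tested genes called in this contrast, where 0.119% of all 11795 genes tested were called and 0.0933% were called lower. It stayed called under all 26 alternatives that tested it. Olfml3 had a difference of -0.61 that did not pass (adjusted p = 0.106), and without G37R 1 of the 8-month cord it was -0.69 (adjusted p = 0.036).

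No gene of the 10 was called different from 8-month cord in its effect in astrocytes or motor neurons. In astrocytes 0 of the 8 genes tested were called by limma and 1 had an unadjusted p under 0.05, where 0.0330% of all genes tested were called, and the difference for Fcgr3 was 0.12 (SE 0.141). In motor neurons 0 of the 3 were called and 1 had an unadjusted p under 0.05, where 7.08% of all genes tested were called. Aif1 and Fcgr3 reached the minimum level there through the G37R group alone. With 5 in place of 1 added to the values, limma called Fcgr3 (difference -0.502, adjusted p = 0.0076) and Olfml3 (-0.447, adjusted p = 0.0271). A larger added value shrinks changes at low levels more, and no share over all genes is given for that fit. Nothing is read from either motor neuron count. The 11-month cord effect minus the 8-month cord effect gave 0 calls for the 10 genes and for all 13590 genes tested, 0% of them, with 0 of the 10 at an unadjusted p under 0.05.

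Between the ages of oligodendrocytes, the G37R effect at 11 months was higher than at 8 months for Aif1 (difference 1.23, SE 0.402, adjusted p = 0.0483) and Fcgr3 (1.44, SE 0.443, adjusted p = 0.0408). These were 2 of 6 genes tested, where 7.24% of all 11551 genes tested were called higher. The 8-month libraries are all labelled male and the 11-month libraries are of both sexes. Both calls were close to the threshold and were lost in 20 of 28 alternatives for Aif1 and 14 of 28 for Fcgr3. The Fcgr3 call was lost without any 1 of G37R 1 to 4 or control 1, 4 or 5 at 8 months, or of G37R 2, G37R 3 or control 1 to 3 at 11 months (adjusted p = 0.0519 to 0.12). The Aif1 call was lost without any 1 of the 9 libraries at 8 months, or of G37R 2, G37R 3 or control 1, 2, 4 or 5 at 11 months (adjusted p = 0.0567 to 0.158). The effect in 11-month oligodendrocytes minus that in 11-month cord gave 0 calls among the 8 genes tested by limma, and 0 at an unadjusted p under 0.05, where 27.7% of all genes tested were called.

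Ordered over the 13 groups, P2ry12 was highest in 11-month control cord (18.4 ± 0.830), followed by 8-month control cord (15.5 ± 1.42), 11-month G37R cord (15.5 ± 1.25) and 8-month G37R cord (13.3 ± 1.27), with the SD over 3 or 4 libraries. The first did not overlap the second, and the other 3 overlapped their neighbours among the cords. The 7 oligodendrocyte and astrocyte groups followed at 3.23 to 4.17, all overlapping their neighbours. The motor neuron groups came last, at 0.607 in G37R and 0.456 in control libraries, below all others.

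For Fcgr3 the G37R cords at 11 and 8 months (28.4 ± 10.3 and 22.6 ± 2.97) stood with the 11-month control cord (24.7 ± 17.2), and these 3 overlapped. The 8-month control cord (10.6 ± 0.500) lay below them and above every purified library but G85R 1 of the oligodendrocytes, at 10.9. G37R astrocytes (6.84 ± 0.684), G37R oligodendrocytes at 11 months (5.35 ± 1.03) and G85R oligodendrocytes (4.80 ± 5.25) came before control astrocytes (2.58 ± 0.445), each overlapping the next. Control motor neurons were lowest at 0.573 ± 0.0618.

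The other microglial genes were read from lists that had been chosen with earlier results of these data known, which give no independent support. In 8-month cord 16 of 18 disease-associated genes rose and 0 fell (median log2 change 1.38, against -0.01 over all genes tested), and 3 of the 16 averaged under 1 in the controls. Lyz2, a lysozyme, was at 85.4 ± 38.7 in G37R and 11.8 ± 3.30 in control cord, with a log2 change of 2.69 (adjusted p = 0.0262). Cst7, a cystatin, was at 7.44 ± 2.58 in G37R and 0.656 ± 0.157 in control cord, and Clec7a, a lectin that binds fungal glucans, rose by a log2 change of 2.17. All 3 C1q genes, which encode the first component of complement, rose with a median of 1.06.

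Of 15 other microglial and leukocyte genes 8 rose and 0 fell in 8-month cord (median 0.50). Fcrls, an Fc receptor-like gene selective for mouse microglia, was at 15.8 ± 4.54 in G37R and 4.17 ± 0.726 in control cord (log2 change 1.67, adjusted p = 0.0155). Ptprc, the leukocyte antigen CD45, and P2ry6, a UDP receptor linked to phagocytosis, rose by 0.87 and 0.78. Fcgr2b, the inhibitory paralog of Fcgr3, was at 6.41 ± 1.73 in G37R and 2.25 ± 0.0876 in control cord (log2 change 1.16, adjusted p = 0.00943), and Fcgr4 averaged under 1 in that table.

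Of 12 signals and factors of microglia maintenance tested from 13 listed, 3 rose and 0 fell in 8-month cord (median 0.26). Irf8, a transcription factor of the myeloid lineage, was at 4.84 ± 0.902 in G37R and 2.08 ± 0.496 in control cord (log2 change 0.93, adjusted p = 0.0154). Tgfb1, which encodes transforming growth factor beta 1, rose by 0.42. The CSF1 receptor ligands did not pass, with Csf1 at 19.7 ± 1.52 in G37R and 18.3 ± 2.08 in control cord, and Il34 at 10.7 ± 0.443 in G37R and 11.04 ± 0.628 in control cord. Cx3cl1, the ligand of Cx3cr1, was at 94.5 ± 2.38 in G37R and 94.6 ± 2.65 in control cord.

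In astrocytes all 3 C1q genes and 6 of 14 disease-associated genes tested rose, and 0 fell, where 1.52% of all genes tested rose. Of the 6, 1 averaged under 1 in the controls. Tyrobp, the signalling adaptor of microglial receptors, was at 31.1 ± 1.40 in G37R and 10.1 ± 2.18 in control astrocytes (log2 change 1.55, adjusted p = 0.000169). Of 8 other microglial and leukocyte genes tested, Laptm5 rose (log2 change 0.62) and Sall1 fell (-0.54, adjusted p = 0.0371). Sall1 is a microglial transcription factor, but it was at 15 ± 2.80 in G37R and 21.96 ± 2.06 in control astrocytes, above its 13.2 ± 2.004 in control cord at 8 months, unlike the 10 genes described here.

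In motor neurons all 3 C1q genes and 6 of 10 disease-associated genes tested rose and 0 fell, where 6.49% of all genes tested rose, in the libraries whose astrocyte and oligodendrocyte marker sums were also higher. Of the 6, 1 averaged under 1 in the controls. Tyrobp had the largest change of the 6 (log2 change 2.02, adjusted p = 0.0167). Of the maintenance list, Smad3 (0.38) and Cx3cl1 (0.21) rose and Mef2a (-0.39) fell there, out of 10 tested. In 11-month G37R oligodendrocytes 10 of 16 disease-associated genes and 6 of 11 maintenance genes rose, where 26.1% of all genes tested did. Of these, 5 of the 10 and 4 of the 6 averaged under 1 in the controls and so were tested through the mutants' levels. Nothing is read from these counts. Lyz2 had the largest log2 change of the called disease-associated genes (3.49, adjusted p = 0.00468). Irf8 had that of the maintenance genes (2.05, adjusted p = 0.00481), followed by Sfpi1, which encodes PU.1 (1.79, adjusted p = 0.00329). Whether Lyz2, Irf8 and Sfpi1 averaged under 1 in the controls is not given here, so their changes are a description. In 8-month oligodendrocytes 0 genes of these 4 lists were called by limma, with 4 of 10 disease-associated and 3 of 10 maintenance genes at an unadjusted p under 0.05.

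The summed level of 10 perivascular macrophage and monocyte genes in 8-month cord was 5.04 to 7.89 in G37R, against 3.84 to 5.25 in control libraries. That of 12 lymphocyte and neutrophil genes was 1.80 to 3.88 in G37R, against 0.748 to 4.42 in control libraries. Of either list 1 gene was tested there, and 0 were called by limma, with 1 perivascular gene at an unadjusted p under 0.05. In G37R cord at 8 months the monocyte receptor Ccr2 was at 0.109 ± 0.104, against 0.0186 ± 0.0170 in control cord. In astrocytes the perivascular list summed to 1.75 to 2.75 in G37R, against 1.92 to 2.85 in control libraries, while the 10 genes summed to 28.0 to 36.6 in G37R, against 14.9 to 20.9 in control libraries. In 11-month oligodendrocytes it summed to 0.814 to 2.11 in G37R, against 0.130 to 0.511 in control libraries, which do not overlap. In 11-month cord it summed to 6.83 to 15.2 in G37R, against 17.8 in the library labelled control 1 and 4.65 and 6.25 in the other controls, high where Fcgr3, Aif1 and Csf1r were high. The part of other macrophages and monocytes in the values of the 10 genes was not tested.

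Over the 13 groups, the gene outside the lists whose centred log2 profile lay closest to the median profile of the 10 was Vps13d, a lipid transport gene, with a root mean square difference of 0.29 among 10805 genes compared. Also among the 5 closest were the neuropeptide gene Npy (0.32), Leng8 (0.32) and Plxnb2, a semaphorin receptor (0.34). The 10 genes themselves lay 0.13 (Gpr34) to 0.57 (Csf1r) from their own median. The groups share libraries across genes, and this order is a description.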

How the data were processed

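RNA was measured in 52 libraries of 13 groups in 6 tables. Purified cells were sampled through tagged ribosomes and the spinal cord as whole tissue. Per the labels, poly(A) RNA was sequenced as single reads of 50 nt. The mm9 build and the tools TopHat2 2.0.8b, Cufflinks and Cuffdiff appear, with no roles, in the submitters' processing notes. Each deposited table lists 23697 genes and 2 blank lines, which were not used.

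The authors deposited FPKM for the 11-month cord. The other 5 deposited tables hold a signal about 16774 times higher, a factor set from the 8-month and 11-month cords. That signal was divided by this factor to give FPKM-equivalents. In the purified cells the factor is an assumption, so levels compared across tables rest on it. FPKM had been assumed for every table when the tests were chosen.

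Absolute depth is unknown. From the steps between low values, depth varied by up to 1.36 times between libraries in motor neurons, 1.32 in astrocytes, 1.30 and 1.21 in 8-month and 11-month oligodendrocytes, and 1.27 and 1.65 in 8-month and 11-month cord.

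Genes with a mean of 1 or more over a table were tested in limma 3.58.1 (R 4.3.3) on log2(value + 1), with a trended, robust prior and Benjamini-Hochberg adjustment over all genes tested. An adjusted p under 0.05 was called. The added 1 shrinks fold changes of genes with low values. Differences between effects were contrasts in 1 fit over both tables. The procedure was checked on simulated data. Nothing in the labels says which libraries came from separate animals, so p-values measure the spread between libraries, which may be technical. Alternatives were other pseudocounts, level filters and scalings, sample weights, a replicate block, no trend, sex as a covariate, and each library left out.

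The 10 genes and the 13 other lists were chosen with earlier results of these data known. All 131 genes of the 14 lists were matched by symbol. The text names all 10 genes, at most 3 called genes with the greatest change per other list and comparison, the 5 genes with the most similar group levels, and genes that overlap or resemble a member. A few others were chosen after their values were seen, and a few that the rule names are not reported here. Promoters are from RefSeq (GRCm38.p6), where 7 of the 10 genes matched.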

Additional observations from a re-analysis of the deposited data

Results flagged for a closer look

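In 90 sets of 4 to 10 libraries, 1 for each gene and group, 7 had a highest or lowest library far from the others by Dixon's criterion, which chance gives in about 1 of 20 sets. Control 3 of the 8-month oligodendrocytes was such a library for a pair of genes. Its Cx3cr1 level was 5.955 FPKM-equivalents, with the next control at 1.671, and its Tmem119 level was 1.499, with the next control at 0.7811. In the same cells, G37R 2 had the highest Olfml3 level of its group, 1.719, with the next at 1.266.

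In astrocytes, G37R 2 had 2.278 FPKM-equivalents of Cx3cr1, with the next G37R library at 1.231. In motor neurons the libraries set apart were low. Gpr34 was at 0.3233 in G37R 2, with the next G37R library at 0.5256, and P2ry13 was at 0.04892 in control 3, with the next control at 0.108. In 8-month cord P2ry13 was at 3.967 in control 3, with the next control at 5.122.

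The mutant effect differed between groups of libraries in 3 tests by limma. For Fcgr3 the log2 effect in 8-month oligodendrocytes minus that in 8-month cord was -1.109. The log2 effect in 11-month minus that in 8-month oligodendrocytes was 1.232 for Aif1 and 1.436 for Fcgr3.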

How the results depend on the processing

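The 10 genes gave 2299 log2 changes under alternatives, of which 2211 kept their side of the threshold, 54 lost a call and 34 gained one. None of the 288 alternative values of called changes reversed sign, and 103 values that were not called did. Changes in counts are given below, and their cause was not tested. Sample weights gave 522 genes called in astrocytes, 25 in 8-month oligodendrocytes, and at 11 months 8891 for G37R, 96 for G85R and 3717 for G85R against G37R. Of the 10 genes, 8 were tested at 11 months, and the weights called 6 for G37R and 3 for G85R against G37R. Of all 11733 genes tested there, they called 8891 and 3717. They also called 1 of the 10 for 11-month oligodendrocytes against cord and 5 for 11-month against 8-month oligodendrocytes. For these effects no share over all genes is given, and nothing about the 10 genes is read from these counts. The weights did not converge fully in any fit with 11-month oligodendrocytes. A pseudocount of 5 gave 0 genes for G85R against control and 1 in 11-month cord, and for effects on the 10 genes 2 for motor neurons against 8-month cord, 2 for 8-month oligodendrocytes against cord and 0 for 11-month against 8-month oligodendrocytes. With no filter, 1026 genes were called in motor neurons and 0 for G85R against control, and 4 of the 10 genes in motor neurons and 1 between oligodendrocyte ages. No filter with a pseudocount of 0.1, chosen after seeing the data, gave 5 of the 10 in motor neurons, 1 between oligodendrocyte ages and 2 genes for G85R against control. A minimum mean of 5 gave 6 genes in 8-month oligodendrocytes and 135 in 8-month cord. In motor neurons, astrocytes, 8-month oligodendrocytes against cord and between oligodendrocyte ages it left no gene of the 10 to test. The 0 calls there come from the filter and say nothing on the calls of the main fits. In 11-month G37R oligodendrocytes it left Csf1r alone of the 10, which was not called. Without the trend, 2 genes were called for G85R against control, and with sex as a covariate 0. Sex as a covariate left 1 of the 10 between oligodendrocyte ages. A fit of the compared groups alone called 5 of the 10 for 11-month G37R and 3 genes for G85R against G37R. The share of all genes called for 11-month G37R in that fit is not given here. In the main fit it was 49.0%, so nothing about the 10 genes is read from the 5 calls.

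Replicate numbers did not pair the libraries. Same-numbered libraries correlated at -0.229 to 0.352, and no comparison had every pair over 0.1 or every library closest to its own number. With the number as a replicate block, 810 genes were called in motor neurons, 49 in astrocytes, 7 in 8-month oligodendrocytes, 91 in 8-month cord, 0 for G85R against control and 2 for G85R against G37R. Of the 10 genes, 2 were called in astrocytes, where Csf1r (adjusted p = 0.117) and Aif1 (0.138) lost the call. In 8-month cord 1 was called, Csf1r (0.0883) and Olfml3 (0.0979) losing it, and 0 in 11-month G37R oligodendrocytes, Aif1 (0.0544) and Fcgr3 (0.0623) losing it. The block left 0 between oligodendrocyte ages.

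Leaving out each library in turn gave 274 to 2136 genes in motor neurons, 138 to 296 in astrocytes, 7 to 17 in 8-month oligodendrocytes, 2805 to 6549 for 11-month G37R, 0 to 2 for G85R against control, 2 to 315 for G85R against G37R, 80 to 482 in 8-month cord and 4 to 10 in 11-month cord. Of the 10 genes it gave 2 to 3 in motor neurons, 1 to 3 for 11-month G37R, 0 to 2 for G85R against G37R, 1 to 4 in 8-month cord, 1 to 2 for 8-month oligodendrocytes against cord and 0 to 2 between oligodendrocyte ages. Alternatives chosen after seeing the data also left out doubted libraries. Without G37R 3 and 4, motor neurons gave 85 genes with no filter and 1 of the 10. Without G85R 1, 5 of the 10 were called for 11-month G37R, where 28.7% of all genes tested were called higher. Without control 1 and 3, 11-month cord gave 22 genes. The unknown depth limits statements on the lowest genes, which are given as levels.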
